A study of Saccharomyces cerevisiae with 35 samples.

Results

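The genes described here are 10 members of the budding yeast phosphate (*PHO*) pathway and its polyphosphate branch. They were chosen by their identifiers in the count tables: *PHO4* (YFR034C), *PHO2* (YDL106C), *PHO80* (YOL001W), *PHO85* (YPL031C), *PHO81* (YGR233C), *VTC1* (YER072W), *VTC2* (YFL004W), *VTC3* (YPL019C), *VTC4* (YJL012C) and *PHM8* (YER037W). They are 10 of the 12131 features in each table, and all 10 passed the filter on low counts in both. RNA was sequenced from whole colonies of *Saccharomyces cerevisiae* strain F45 and its derivatives after 4 days on rich solid medium, in 35 libraries that fall into 9 groups and 2 batches. Each library was a pool of colonies of a strain, and each batch 1 group a single strain, so p-values measure the spread between these libraries.

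In batch 1, 24 libraries covered 6 groups of 4. These were a disome of chromosome XV, which carried a second copy of that chromosome in a haploid cell, a hemizygous *DIG1/dig1*Δ strain, in which 1 of the 2 *DIG1* copies of a chromosome XVI disome was replaced by *kanMX4*, the chromosome XVI disome itself, a *DIG1* overexpression strain with *DIG1* on a low copy plasmid, an empty plasmid control, and euploid F45. The paper lists plasmid pAB340 (DIG1-pFA6a-KanMX4) for the overexpression strain and pRS41K for the empty plasmid control. It does not say whether these plasmids share a backbone. In batch 2, 11 libraries came from *flo11*Δ (n = 4) and *cis3*Δ (n = 4) strains, each deletion made with *kanMX4* and represented by 2 strains with 2 libraries each, and from F45 (n = 3). The tests treated the 4 libraries of a deletion as replicates without a term for strain. In batch 2, too, p-values therefore measure the spread between libraries and not between strains. All strains were *MATa* haploids in origin and shared a deletion of *HO* marked with *hphMX6*, an *SPS2:EGFP* reporter marked with *natMX4*, and a serine auxotrophy that had not been mapped. *DIG1* encodes a repressor of the filamentation and mating transcription factors, *FLO11* a cell surface adhesin and *CIS3* a cell wall protein. F45 colonies were fluffy, the disomes and the *DIG1* plasmid, *flo11*Δ and *cis3*Δ strains grew smooth colonies, and hemizygous colonies had a smooth centre and a fluffy edge.

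In yeast with ample phosphate, the cyclin Pho80 and its kinase Pho85 phosphorylate the transcription factor Pho4, which then leaves the nucleus. When phosphate runs low, the inhibitor Pho81 blocks the kinase, and Pho4 acts with the homeodomain protein Pho2 to induce phosphatases, phosphate transporters, *PHO81* itself, the *VTC* genes and *PHM8*. The vacuolar transporter chaperone (VTC) complex makes polyphosphate and moves it into the vacuole: Vtc4 is the polymerase, Vtc1 a small membrane subunit, and Vtc2 and Vtc3 are alternative subunits with an SPX domain, a sensor of inositol pyrophosphates. Phm8 is a phosphatase of lysophosphatidic acid and of nucleoside monophosphates.

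Genomic position decides which gene of the cyclin and kinase pair a disome doubled, and no strain doubled both. Only mRNA was measured, so the amount and activity of the complex are not known. *PHO80* lies on chromosome XV (chrXV:325249-326130, plus strand), whereas *PHO85* (chrXVI:492018-493037, minus strand) and *VTC3* (chrXVI:514511-517018, minus strand) lie on chromosome XVI, in build R64-1-1. The other members are on chromosomes that no strain duplicated, *PHO4* and *VTC2* on VI, *PHO2* on IV, *PHO81* on VII, *VTC4* on X, and *VTC1* and *PHM8* on V. The letters CACGTG, a known core of Pho4 sites, were searched on both strands of the 500 bases before each start codon. They occurred before 5 of the 10 members and before 6.07% of 6570 open reading frames (ORFs). These 5 are *PHO81* and the 4 *VTC* genes. The 7 sites are shown, read on the gene's strand of the reference, with the letters CACGTG in capitals and 10 bases on either side (RefSeq sequence, build R64). Both *VTC4* windows overlap.
*VTC1* site 157 bases before ATG (chrV:302639-302664, plus strand): tagatattagCACGTGtctcggagag
*VTC2* site 311 bases before ATG (chrVI:131489-131514, plus strand): aaaaaaaaccCACGTGctgcttggaa
*VTC3* site 345 bases before ATG (chrXVI:517348-517373, minus strand): tgcgagggccCACGTGgcttaataca
*VTC3* site 311 bases before ATG (chrXVI:517314-517339, minus strand): cagtcgcaagCACGTGcatgcgattt
*VTC4* site 125 bases before ATG (chrX:413509-413534, minus strand): tattcatccgCACGTGgctgcacacg
*VTC4* site 113 bases before ATG (chrX:413497-413522, minus strand): cgtggctgcaCACGTGaatgaaaaag
*PHO81* site 344 bases before ATG (chrVII:958539-958564, minus strand): ggtgttatggCACGTGcgaataaggg

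The variant CACGTT, which reads AACGTG on the other strand, and none of whose matches overlapped one to CACGTG, was found before 5 members (*PHO80*, *PHO85*, *PHO81*, *VTC3* and *PHM8*) and before 16.0% of ORFs. Neither set of letters was found before *PHO4* or *PHO2*. The cyclin and kinase genes *PHO80* and *PHO85*, which carry only the variant, are shown for comparison with the sites above, again with the matched letters in capitals, and *PHM8* beside them. F45 differs from the reference at an unknown number of bases, and a match of letters is a description of the reference, not evidence of binding.
*PHO80* site 490 bases before ATG (chrXV:324749-324774, plus strand): gaatgaggcgAACGTGcttgtaccat
*PHO85* site 247 bases before ATG (chrXVI:493269-493294, minus strand): tccgtccagaCACGTTaaatgaattg
*PHM8* site 275 bases before ATG (chrV:225604-225629, plus strand): agggggcagcAACGTGcttcacatac

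Counts summed over features ranged from 6503076 to 37823857 per library in batch 1 (median 12144564) and from 11565108 to 25104790 in batch 2 (median 16912714). Each member had between 176 and 10853 counts in a library. The targeted genes matched the labels: *DIG1* differed by 1.00 (log2) between the chromosome XVI disome and F45, by -1.18 between the hemizygous strain and the chromosome XVI disome, and by 2.09 between the overexpression strain and the empty plasmid control, while *FLO11* differed by -11.99 in *flo11*Δ and *CIS3* by -11.38 in *cis3*Δ relative to F45. Levels are given as normalized CPM, the counts of a gene scaled to a common library size, scaled in batch 1 on ORFs outside chromosomes XV and XVI. Differences are log2 fold changes, and a gene was called at an adjusted p below 0.01 in edgeR's quasi-likelihood test with Benjamini-Hochberg adjustment over all features tested, which is the test behind every adjusted p of a gene below. In these bulk colonies, fewer cells with a transcript and less transcript per cell cannot be told apart.

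Per kilobase of gene, *VTC1* was the most abundant member in F45, with a mean of 769 CPM per kilobase in batch 1. *VTC4* (165 CPM per kilobase), *VTC3* (163) and *PHM8* (147) followed, with libraries that overlapped one another. *PHO85* stood at 122 CPM per kilobase, *PHO80* at 69.5, *VTC2* at 53.0, *PHO4* at 50.7 (overlapping *VTC2*), *PHO81* at 30.6 and *PHO2* at 20.3. The kinase message was therefore more abundant per length than that of its cyclin in euploid F45, and *VTC3* more abundant than *VTC2*.

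**Figure D1:**
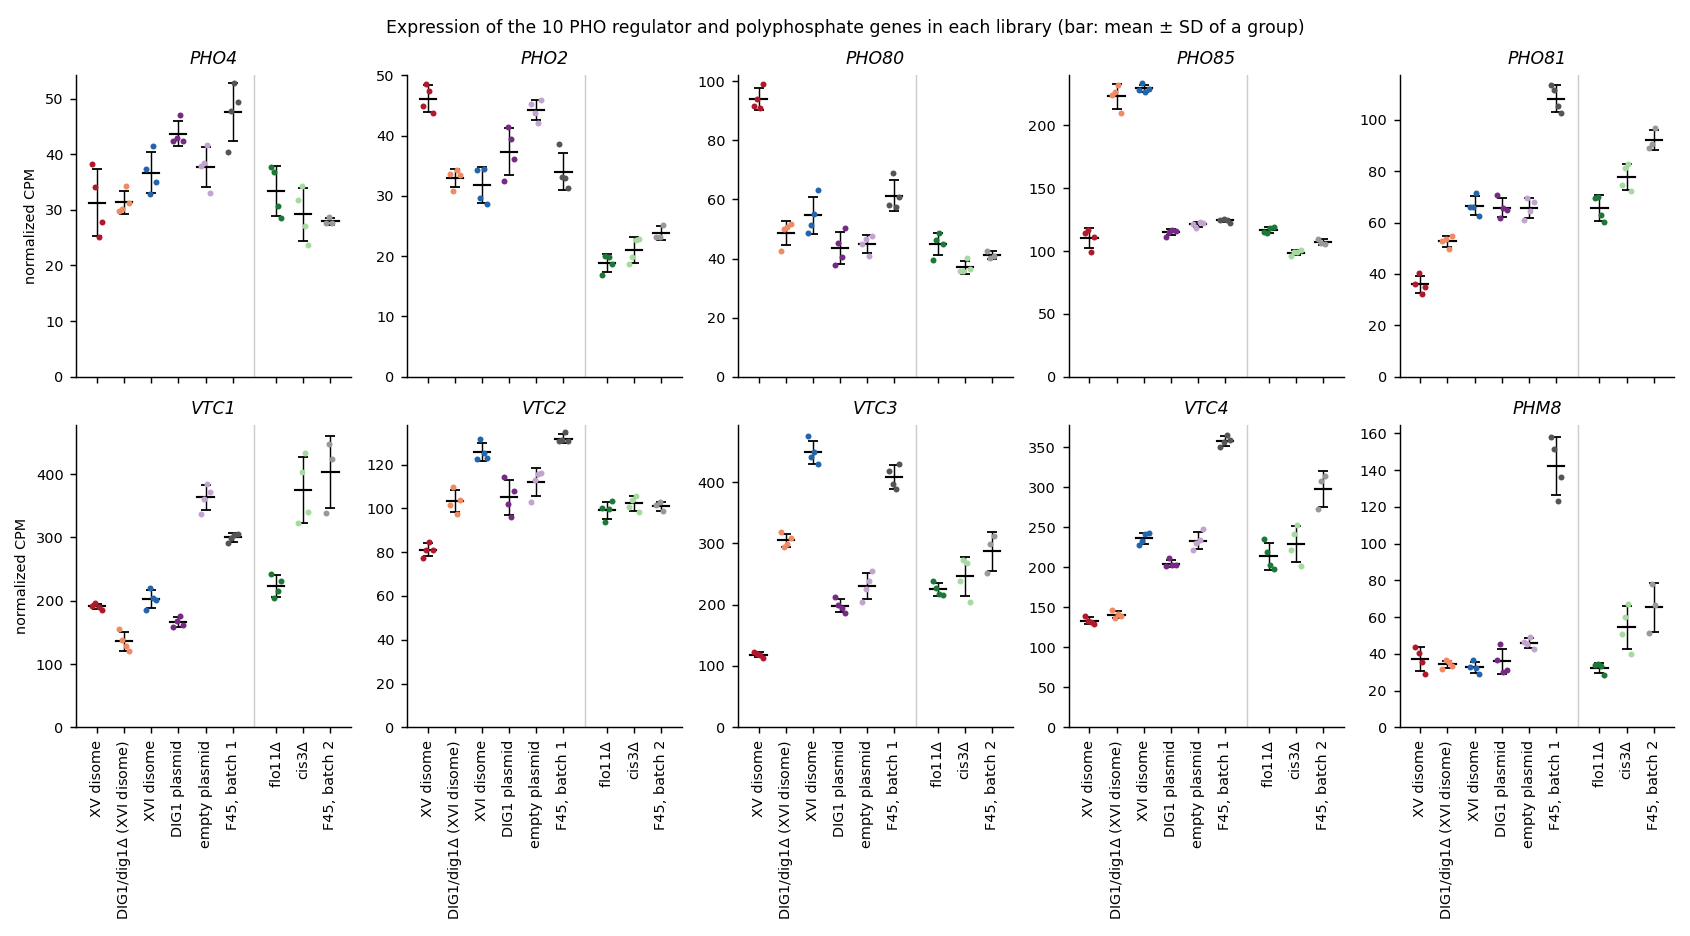
Normalized CPM of each member (1 panel a gene, linear axis from 0) in every library (points), with the mean and SD of each group as bars and the separately scaled batch 2 right of the grey line. *PHM8* was between 123 and 158 CPM in F45 of batch 1 and at most 49.1 CPM in the other groups of that batch, and *PHO80* was highest in the chromosome XV disome, at 91.1 to 99.1 CPM.

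Members called lower than in F45 outnumbered those called higher in each aneuploid strain. In the chromosome XV disome, 2 members were called higher (*PHO80* and *PHO2*) and 8 lower, against 53.8% of all features called in either direction (28.3% higher and 25.5% lower), and the libraries of all 10 separated without overlap, as did those of 54.2% of features. The median log2 fold change of the members was -0.68, against 0.01 over all features. In the chromosome XVI disome, 1 member was called higher (*PHO85*) and 5 lower (*PHO4*, *PHO81*, *VTC1*, *VTC4* and *PHM8*), against 49% of features (26.4% higher and 22.6% lower). No overlap was seen for 5 members, against 54.1% of features, and the median was -0.28 for the members and 0.03 over all features. The hemizygous strain had 1 member called higher (*PHO85*) and 8 lower relative to F45, against 52.4% of features (27.4% higher and 24.9% lower), with 9 members that did not overlap, against 57.1% of features, and a median of -0.51 for the members against 0.01 over all features. With the scaling factors applied to total counts, the features called relative to F45 divided into 1894 higher and 2530 lower in the chromosome XV disome (2290 and 2067 as reported), 1828 and 2440 in the hemizygous strain (2222 and 2020), and 1674 and 2208 in the chromosome XVI disome (2141 and 1827). The same 4 F45 libraries served all 3 comparisons.

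**Figure D2:**
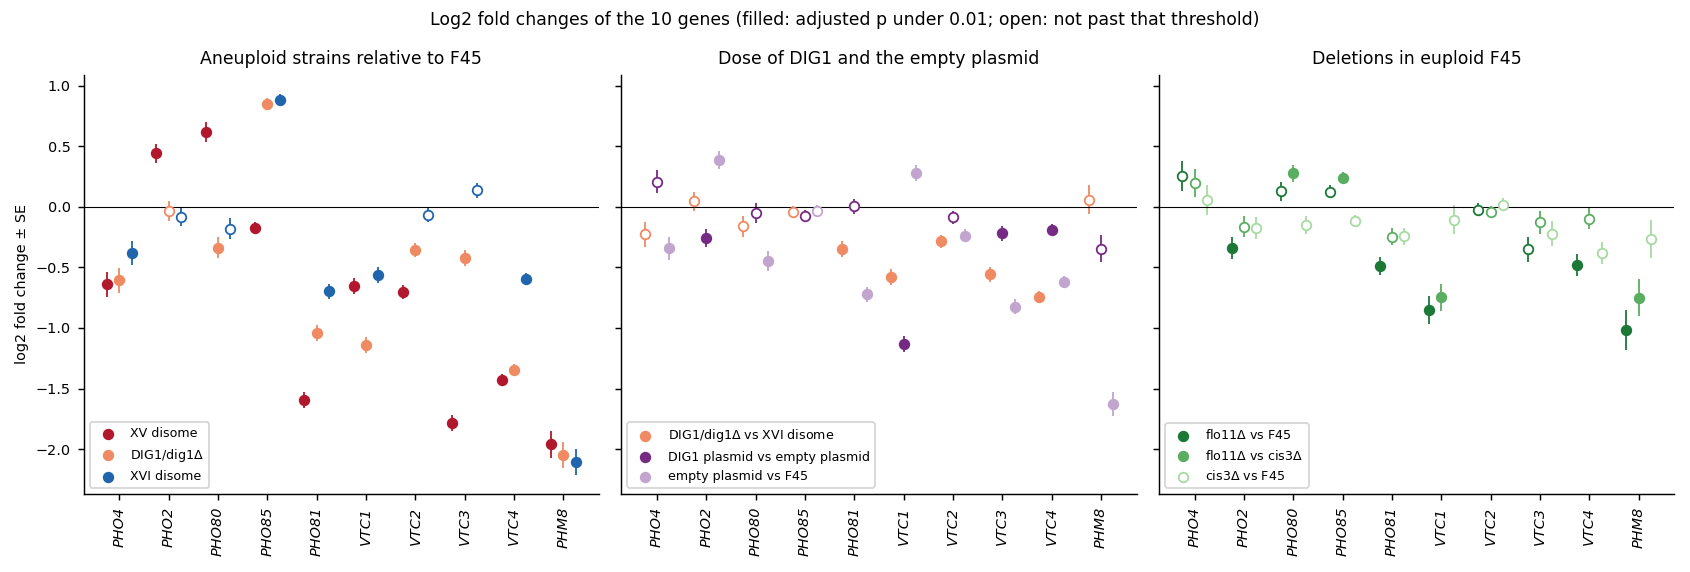
Log2 fold changes (vertical axis, bars show the SE) of the 10 members in the comparisons of aneuploid strains with F45 (left), of *DIG1* dose and empty plasmid (middle) and of the deletions (right), with filled points for an adjusted p below 0.01. *PHM8* lay between -2.11 and -1.63 in the 4 comparisons of batch 1 with F45.

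The cyclin message was higher in the chromosome XV disome than in F45. *PHO80* stood at 91.6, 94.1, 91.1 and 99.1 CPM in the chromosome XV disome, against 58.2, 68.9, 57.6 and 60.7 CPM in F45. Every disomic library exceeded every F45 library, and the log2 difference was 0.62 (adjusted p = 2.39e-07, SE = 0.0825). That is 1.53-fold, where the 541 ORFs tested on chromosome XV had a median of 1.89-fold and 26.1% of them lay below *PHO80*. Relative to a change equal to the copy number, *PHO80* was low by a log2 value of -0.38 (adjusted p = 2.11e-04), and 51.9% of all features were called in that copy number adjusted comparison.

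On chromosome XVI, the kinase message lay nearer to a change equal to its copy number, though *PHO80* and *PHO85* were not tested against each other in this. *PHO85* stood at 228, 234, 227 and 229 CPM in the chromosome XVI disome and at 224, 226, 233 and 209.6 CPM in the hemizygous strain, against 124, 126, 125 and 123 CPM in F45. Both disomic groups lay wholly above F45, by a log2 difference of 0.88 in the chromosome XVI disome (adjusted p = 6.46e-15, SE = 0.0496) and of 0.84 once a *DIG1* copy was removed (adjusted p = 1.99e-14, SE = 0.0499). The chromosome XVI disome had 1.85 times the F45 level and the hemizygous strain 1.80 times, next to a median of 1.98 for the 472 ORFs of the chromosome in either comparison. After copy number adjustment, *PHO85* differed from F45 by -0.12 in the chromosome XVI disome (adjusted p = 0.0463, not called; 46.8% of features called) and by -0.16 in the hemizygous strain (adjusted p = 0.00844; 50.8% called). The call in the hemizygous strain was lost under several settings, with adjusted p up to 0.0387 without hemizygous library 4.

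In strains with a single chromosome XVI, *PHO85* varied little. It was 111, 115, 117 and 116 CPM in the *DIG1* overexpression strain, and 122, 118, 123 and 122 CPM in the empty plasmid control. These groups differed by -0.08 without a call (adjusted p = 0.226), although their libraries did not overlap. The chromosome XV disome, at 114, 117, 99.3 and 111 CPM, lay below F45 by -0.17 (adjusted p = 0.00396), and this call was lost without disomic library 3 (adjusted p = 0.0325), without F45 library 2 (adjusted p = 0.0114) and with only these groups in the fit (adjusted p = 0.0251).

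*PHO80* was lower than in F45 in the hemizygous strain and in the empty plasmid control. It was 42.5, 49.9, 50.8 and 51.5 CPM in the hemizygous strain, lower than in F45 by a log2 difference of -0.34 (adjusted p = 0.00132), with no overlap, a call lost without F45 library 2 (adjusted p = 0.0116) or hemizygous library 1 (adjusted p = 0.0104). The chromosome XVI disome, at 48.7, 51.3, 55.1 and 63.3 CPM, overlapped F45 and was not called (-0.18, adjusted p = 0.0669), but was with the scaling factors applied to total counts (-0.26, adjusted p = 0.00961). In the empty plasmid control, at 44.9, 46.7, 40.8 and 47.6 CPM, *PHO80* was again lower than in F45 (-0.45, adjusted p = 4.45e-05).

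**Figure D3:**
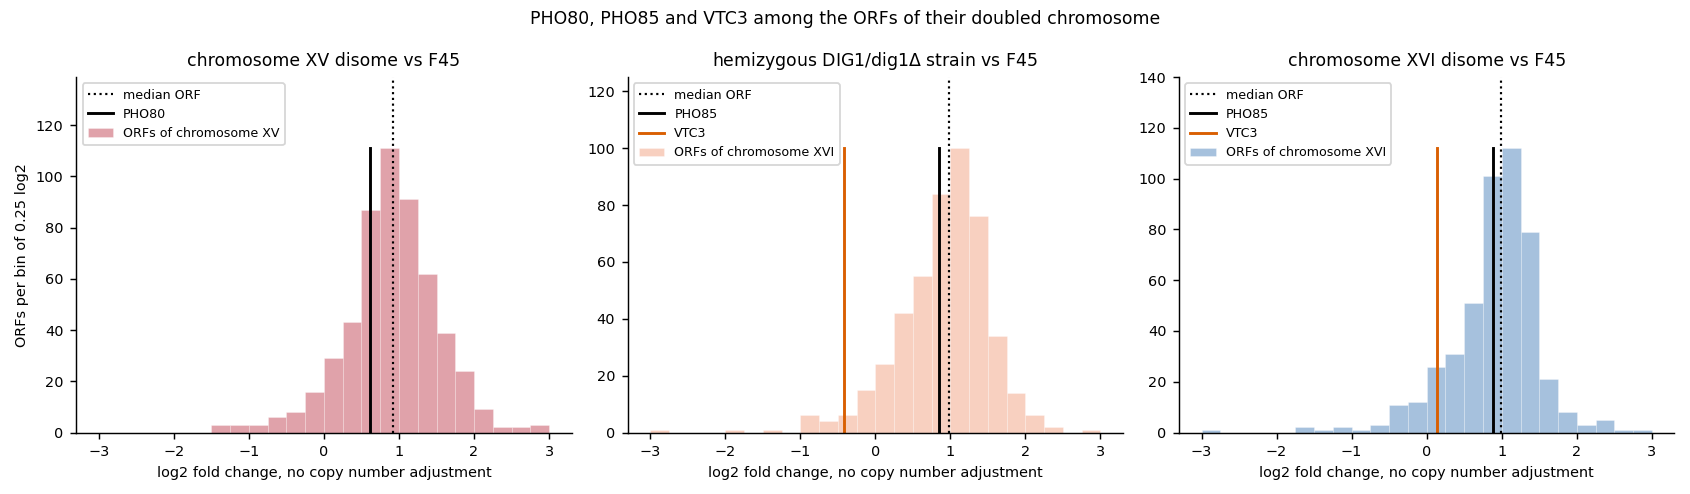
Number of ORFs of the duplicated chromosome (vertical axis) by log2 fold change relative to F45, with the median ORF dotted, *PHO80*, *PHO85* and *VTC3* as lines, and ORFs beyond the axis counted in the outermost bins. *PHO80* sat at 1.53-fold and *PHO85* at 1.85-fold and 1.80-fold, whereas *VTC3* sat at 1.10-fold in the chromosome XVI disome and 0.746-fold in the hemizygous strain.

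The disomes thus shifted the ratio of cyclin to kinase message in opposite directions. With *PHO80* on chromosome XV and *PHO85* on chromosome XVI, copy number alone would move this ratio in these directions. The ratio was not adjusted for copy number, so its p-values in the disomic strains do not test a change beyond the karyotype. The *PHO80*/*PHO85* ratio per kilobase had a geometric mean of 0.986 in the chromosome XV disome, 0.252 in the hemizygous strain and 0.274 in the chromosome XVI disome, against 0.569 in F45. The log2 differences from F45 were 0.79 for the chromosome XV disome, -1.18 for the hemizygous strain and -1.06 for the chromosome XVI disome, each with libraries that did not overlap (exact permutation p = 0.0286, two-sided and the lowest possible with 4 libraries a group, and 0.04 adjusted over 21 ratio comparisons). Between the chromosome XV and chromosome XVI disomes the ratio differed by 1.85 (exact p = 0.0286, adjusted 0.04). It was 0.428 in the empty plasmid control, lower than in F45 by a log2 difference of -0.41 (exact p = 0.0286, adjusted 0.04). Changing *DIG1* moved it little, by -0.12 between the hemizygous strain and the chromosome XVI disome (exact p = 0.429) and by 0.02 between the overexpression strain and the empty plasmid control (exact p = 0.8).

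The message of the kinase inhibitor was lower in each batch 1 strain that was compared with F45. *PHO81* was 36.0, 40.5, 32.3 and 34.9 CPM in the chromosome XV disome, against 114, 112, 105 and 102 CPM in F45, and differed by -1.60 on the log2 scale (adjusted p = 9.87e-18, SE = 0.0660). The chromosome XVI disome, at 66.2, 66.0, 71.4 and 62.7 CPM, and the hemizygous strain, at 52.8, 53.7, 49.6 and 54.7 CPM, also lay wholly below F45. The chromosome XVI disome differed from F45 by -0.70 (adjusted p = 1.17e-10) and the hemizygous strain by -1.04 (adjusted p = 4.54e-14). The chromosome XV disome was lower than the chromosome XVI disome by -0.90 (adjusted p = 1.90e-12), without overlap, where 47.6% of all features were called.

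With *PHO80* up and *PHO81* down, the chromosome XV disome had the lowest ratio of inhibitor to cyclin message. The *PHO81*/*PHO80* ratio per kilobase was 0.0951 in the chromosome XV disome, 0.271 in the hemizygous strain and 0.305 in the chromosome XVI disome, against 0.441 in F45. The fall in the chromosome XV disome, which includes the second copy of *PHO80*, was 4.64-fold (log2 difference -2.21, exact p = 0.0286, adjusted 0.04). Log2 differences of -0.70 in the hemizygous strain and -0.53 in the chromosome XVI disome had the same exact p, and so did the difference of -1.68 between the chromosome XV and chromosome XVI disomes. The fall was not particular to the disomic strains. In the euploid empty plasmid control the ratio was 0.364, lower than in F45 by -0.28 without overlap (exact p = 0.0286, adjusted 0.04). That difference fell short of the exact test in some runs that left out a library.

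**Figure D4:**
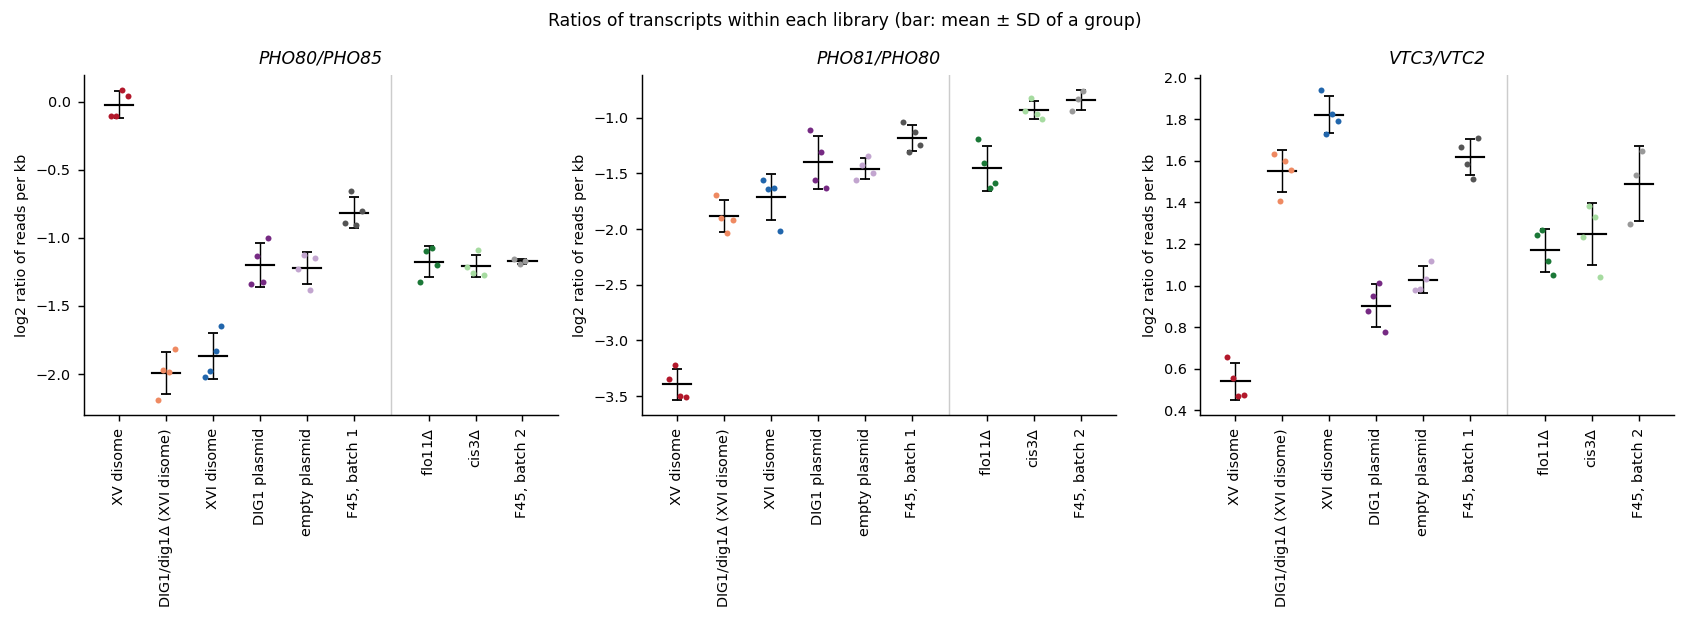
Log2 ratios per kilobase of *PHO80* to *PHO85*, *PHO81* to *PHO80* and *VTC3* to *VTC2* in each library (points), with the mean and SD of each group as bars and batch 2 right of the grey line. On the linear scale, the *PHO80*/*PHO85* ratio was 0.929 to 1.06 in the chromosome XV disome and 0.247 to 0.319 in the chromosome XVI disome, against 0.534 to 0.634 in F45 of batch 1.

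*PHO4* was called lower than in F45 in all 3 disomic strains. It was 38.3, 34.1, 25.1 and 27.8 CPM in the chromosome XV disome, 29.8, 30.2, 34.3 and 31.3 CPM in the hemizygous strain, and 37.4, 32.8, 41.5 and 34.9 CPM in the chromosome XVI disome, against 40.5, 47.8, 52.9 and 49.4 CPM in F45. The chromosome XV disome and the hemizygous strain lay wholly below F45, and the chromosome XVI disome overlapped it. *PHO4* differed from F45 by -0.64 in the chromosome XV disome (adjusted p = 5.01e-06), by -0.61 in the hemizygous strain (adjusted p = 1.30e-05) and by -0.38 in the chromosome XVI disome (adjusted p = 0.00177), the last of which lost its call without F45 library 3 (adjusted p = 0.0129) or chromosome XVI disome library 2 (adjusted p = 0.0109).

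*PHO2* was the only member other than *PHO80* to rise in the chromosome XV disome. It was 44.9, 48.6, 47.3 and 43.8 CPM there, against 38.6, 33.2, 33.0 and 31.4 CPM in F45, without overlap (0.44, adjusted p = 1.46e-05, SE = 0.0770). It was not called in the hemizygous strain (-0.04, adjusted p = 0.713) or the chromosome XVI disome (-0.08, adjusted p = 0.367). The rise was not particular to the chromosome XV disome. In the euploid empty plasmid control *PHO2* was also called higher than in F45, by 0.36 to 0.44 with a library left out.

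The *VTC* genes fell together in the chromosome XV disome, with all 4 called lower than in F45. *VTC3* had the largest difference, at 123, 120.1, 118 and 113 CPM in the disome against 419, 396, 389 and 430.2 CPM in F45 (-1.78, adjusted p = 1.11e-18, SE = 0.0653). *VTC4* was 139, 133, 131 and 129 CPM, against 351, 356, 366 and 359 CPM in F45 (-1.43, adjusted p = 3.81e-19, SE = 0.0499). *VTC1* and *VTC2* differed less, by -0.65 (adjusted p = 1.27e-09) and -0.70 (adjusted p = 1.60e-11), with means of 191 and 81.0 CPM in the disome against 299.9 and 132 CPM in F45. No library of the disome reached the F45 range for any of these genes.

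In the chromosome XVI disome, the *VTC* genes diverged. The polymerase gene *VTC4*, at 228, 233, 242 and 242 CPM, lay wholly below F45 (-0.60, adjusted p = 1.92e-11, SE = 0.0484), and *VTC1*, with a mean of 203 CPM, was also lower (-0.56, adjusted p = 2.50e-08). *VTC2* and *VTC3* were not called, at -0.07 (adjusted p = 0.290) and 0.13 (adjusted p = 0.0633).

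*VTC3*, however, had a second copy in this strain. Its 475, 440.1, 449 and 429 CPM in the chromosome XVI disome overlapped the F45 libraries, a 1.10-fold change where only 9.11% of the ORFs of chromosome XVI lay lower. Per copy it was lower than in F45 by a log2 value of -0.87 (adjusted p = 4.07e-12). In the hemizygous strain, at 318, 294, 299 and 309 CPM, it was lower than in F45 even as measured (-0.42, adjusted p = 1.51e-06, SE = 0.0627), and per copy by -1.42 (adjusted p = 1.25e-16), with 2.97% of the chromosome's ORFs below it. Between the disomes, *VTC3* was lower in the chromosome XV disome than in the chromosome XVI disome by -1.92 as measured (adjusted p = 3.18e-19) and by -0.92 per copy (adjusted p = 2.26e-12, with 41.1% of features called).

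The balance of the alternative subunits differed as well. The *VTC3*/*VTC2* ratio per kilobase was 1.45 in the chromosome XV disome and 3.54 in the chromosome XVI disome, against 3.07 in F45, log2 differences of -1.08 for the chromosome XV disome and 0.20 for the chromosome XVI disome (both exact p = 0.0286, adjusted 0.04). The difference in the chromosome XVI disome no longer passed the exact test without disomic library 1 or 3 or F45 library 2 or 3. Without overlap, the ratio was also lower in the hemizygous strain than in the chromosome XVI disome (-0.27, exact p = 0.0286, adjusted 0.04). The hemizygous strain was not distinguished from F45 (-0.07, exact p = 0.371). In the empty plasmid control, which carried no extra chromosome, the ratio was 2.04, lower than in F45 by -0.59 without overlap (exact p = 0.0286, adjusted 0.04).

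*PHM8* had the largest fall of any member in each disomic strain relative to F45. It was 43.8, 40.5, 35.7 and 29.0 CPM in the chromosome XV disome, 31.8, 36.4, 35.5 and 33.2 CPM in the hemizygous strain, and 32.8, 36.5, 32.5 and 29.0 CPM in the chromosome XVI disome, against 158, 151, 123 and 136 CPM in F45. The 3 disomic groups overlapped one another and all lay far below F45. The log2 difference from F45 was -1.96 for the chromosome XV disome (adjusted p = 5.85e-15, SE = 0.109), -2.05 for the hemizygous strain (adjusted p = 3.21e-15, SE = 0.111) and -2.11 for the chromosome XVI disome (adjusted p = 9.66e-16, SE = 0.108). Neither the chromosome XV disome (0.15, adjusted p = 0.292) nor the hemizygous strain (0.06, adjusted p = 0.751) was called against the chromosome XVI disome.

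Between the disomes, 2 members were called higher in the chromosome XV disome than in the chromosome XVI disome (*PHO80* and *PHO2*) and 5 lower (*PHO85*, *PHO81*, *VTC2*, *VTC3* and *VTC4*), against 47.6% of features called (24.2% higher and 23.4% lower). The libraries of 7 members did not overlap, against 47.5% of features. *PHO80* differed by 0.79 (adjusted p = 2.13e-09) and *PHO85* by -1.06 (adjusted p = 1.90e-16). Once copy number was accounted for, *PHO80* differed by -0.20 and was not called (adjusted p = 0.0376).

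Removing 1 copy of *DIG1* from the chromosome XVI disome lowered *PHO81* and all 4 *VTC* genes. These were the 5 members called in the hemizygous strain relative to the chromosome XVI disome, none was called higher, and all 5 separated without overlap, against 20.2% of features called (9.76% higher and 10.4% lower) and 28.8% that did not overlap. The median over the members was -0.26, against -0.00 over all features. *VTC4* changed most, at 146, 136, 142 and 139 CPM in the hemizygous strain against 228, 233, 242 and 242 CPM in the chromosome XVI disome (-0.75, adjusted p = 3.71e-11, SE = 0.0495). *VTC1* was 156, 137, 129 and 121 CPM, against 186, 219.6, 205 and 201 CPM (-0.58, adjusted p = 4.28e-07, SE = 0.0665). Differences were -0.56 for *VTC3* (adjusted p = 3.36e-07), -0.35 for *PHO81* (adjusted p = 1.74e-04) and -0.29 for *VTC2* (adjusted p = 2.98e-04). *PHO4* (-0.23, adjusted p = 0.101), *PHO80* (-0.16, adjusted p = 0.171) and *PHO85* (-0.04, adjusted p = 0.592) were not called.

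Adding *DIG1* on a plasmid to the euploid also lowered *VTC1*. It was 159, 168, 177 and 161 CPM in the overexpression strain, against 338, 361, 385 and 371 CPM in the empty plasmid control, so that log2 levels differed by -1.13 (adjusted p = 1.31e-13, SE = 0.0657). In all, 4 members were called lower and none higher in this comparison, against 27.9% of features (12.7% higher and 15.2% lower), and 5 members did not overlap, against 37.1% of features. The member median was -0.14, against -0.05 over all features. The other calls were *PHO2* at -0.26 (adjusted p = 0.00645), *VTC3* at -0.22 (adjusted p = 0.00650) and *VTC4* at -0.19 (adjusted p = 0.00261). *PHM8* was 36.7, 45.4, 30.3 and 31.2 CPM in the overexpression strain, against 46.6, 45.3, 49.1 and 42.4 CPM in the empty plasmid control, which overlapped. Its difference of -0.35 was not called (adjusted p = 0.0131), but was by edgeR's likelihood ratio test (adjusted p = 0.00689) and without overexpression library 2 (-0.47, adjusted p = 0.00122).

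Only the call of *VTC1* held in every alternative run for this comparison. Without empty plasmid library 4 it was the only member called, with adjusted p of 0.0201 for *PHO2*, 0.0428 for *VTC3* and 0.0159 for *VTC4*. *PHO81* was 70.6, 61.8, 65.8 and 64.9 CPM in the overexpression strain, against 61.1, 69.6, 64.3 and 67.9 CPM in the empty plasmid control. These libraries interleaved, and the difference was 0.01 (adjusted p = 0.955).

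More *DIG1* therefore went with higher *VTC1* in the disome and lower *VTC1* in the euploid. From these same libraries, the paper had reported *VTC1* as lowered by both *DIG1* changes, so its values here are a description and not independent evidence. The difference between the effects, taken as the chromosome XVI disome minus the hemizygous strain less the overexpression strain minus the empty plasmid control, was 1.71 for *VTC1* (adjusted p = 6.09e-13, SE = 0.0934). It was called for 5 members, all positive, against 11.7% of features (7.09% positive and 4.63% negative), with a median of 0.31 against 0.03. The others were *VTC4* at 0.94 (adjusted p = 2.60e-10), *VTC3* at 0.78 (adjusted p = 2.86e-07), *VTC2* at 0.37 (adjusted p = 0.00101) and *PHO81* at 0.34 (adjusted p = 0.00662). The last was lost without chromosome XVI disome library 3 (adjusted p = 0.0224) and under 11 other settings. The plasmid also differs from the chromosomal copy in dose, with *DIG1* 2.09 higher (log2) against the empty plasmid and 1.18 lower in the hemizygous strain against the chromosome XVI disome, so chromosome dose and size of the *DIG1* change cannot be told apart. Any other difference between the *DIG1* plasmid and the empty plasmid was not tested.

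The empty plasmid control itself differed from F45. Relative to F45, 2 members were called higher (*PHO2* and *VTC1*) and 7 lower, against 39.5% of features (19.3% higher and 20.2% lower), and 8 did not overlap, against 47.2% of features. The member median was -0.40, against -0.00 over all features. *PHM8* was 46.6, 45.3, 49.1 and 42.4 CPM in the empty plasmid control, against 158, 151, 123 and 136 CPM in F45 (-1.63, adjusted p = 4.46e-13). *VTC3*, at 204, 225, 238 and 255 CPM, lay wholly below F45 (-0.82, adjusted p = 2.96e-11), as did *PHO81* (-0.72, adjusted p = 1.53e-10) and *VTC4* (-0.62, adjusted p = 4.78e-11). *VTC1* was higher instead (0.28, adjusted p = 6.91e-04), and *PHO85* was not called (-0.04, adjusted p = 0.572). *PHO4* was lower by -0.34 (adjusted p = 0.00360), a call lost without F45 library 3 (adjusted p = 0.0253), F45 library 4 (adjusted p = 0.0107) or empty plasmid library 4 (adjusted p = 0.0191). *VTC2* and *PHO80* differed by -0.24 (adjusted p = 6.16e-04) and -0.45. Chromosome number was the same in these groups, and what the plasmid and its selection contributed was not tested.

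In batch 2, the *flo11*Δ strains had lower *VTC1* and *PHM8*. *VTC1* was 243, 204, 215 and 232 CPM in *flo11*Δ, against 339, 447 and 424 CPM in F45 (-0.85, adjusted p = 1.05e-04, SE = 0.117). *PHM8* was 33.6, 34.5, 33.2 and 28.3 CPM, against 51.5, 77.9 and 66.6 CPM in F45 (-1.02, adjusted p = 2.96e-04, SE = 0.162). Neither gene overlapped between the groups. F45 of batch 2 had less *PHM8* than F45 of batch 1, though the batches were scaled separately and no test was made between them.

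Relative to F45, 5 members were called lower in *flo11*Δ and none higher, against 25.4% of features (12.4% higher and 13% lower), and 7 did not overlap, against 44.6% of features. The member median was -0.35. The other 3 calls were *PHO81* at -0.49 (adjusted p = 1.63e-04), *VTC4* at -0.48 (adjusted p = 0.00108) and *PHO2* at -0.34 (adjusted p = 0.00889). *PHO2* lost its call whichever library was left out, with adjusted p of 0.0118 to 0.0403. *PHO81* was 69.7, 70.0, 63.0 and 60.1 CPM in *flo11*Δ, against 89.2, 90.5 and 96.6 CPM in F45, without overlap. Its ratio to *PHO80* differed by -0.61 (exact p = 0.0571, adjusted 0.171). *PHO85* (0.12, adjusted p = 0.0715), *PHO80* (0.13, adjusted p = 0.201), *PHO4* (0.25, adjusted p = 0.122), *VTC3* (-0.35, adjusted p = 0.0154) and *VTC2* (-0.02, adjusted p = 0.757) were not called. *VTC3* was called by edgeR's likelihood ratio test (adjusted p = 0.00719), by DESeq2 (adjusted p = 0.00649), with only these groups in the fit (adjusted p = 0.00315) and without F45 library 1 (adjusted p = 0.00627). With only strain YO2085 for *flo11*Δ, 2 members were called, *VTC1* and *PHO81*, and the adjusted p was 0.0110 for *PHM8*, 0.0302 for *VTC4* and 0.0436 for *PHO2*.

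No member was called in *cis3*Δ relative to F45 by edgeR's quasi-likelihood test, in a comparison with 0.323% of features called. At an unadjusted p below 0.05 there were 4 members, and 1 member, *VTC4*, was called by edgeR's likelihood ratio test and by DESeq2. *VTC4* was 222, 242, 253 and 201 CPM in *cis3*Δ, against 273, 308 and 314 CPM in F45, without overlap (-0.38, adjusted p = 0.0417). *PHO2*, *PHO85* and *PHO81* also did not overlap, 4 members in all, where 16.6% of features did not. *PHO81* differed by -0.24 (adjusted p = 0.0648), *PHM8* by -0.27 (adjusted p = 0.330) and *VTC1* by -0.11 (adjusted p = 0.632).

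The deletions were also compared with each other. In *flo11*Δ relative to *cis3*Δ, 2 members were called higher and 2 lower, against 25.5% of features (12.8% higher and 12.7% lower), and 4 did not overlap, against 38.3% of features. *VTC1* was lower in *flo11*Δ, where *cis3*Δ libraries stood at 323, 403, 434 and 340.4 CPM (-0.75, adjusted p = 2.07e-04), and so was *PHM8* (-0.75, adjusted p = 0.00182). *PHO85* was 115, 114, 118 and 119 CPM in *flo11*Δ, against 95.8, 99.0, 99.0 and 101 CPM in *cis3*Δ (0.24, adjusted p = 0.00152), and *PHO80* differed by 0.28 (adjusted p = 0.00749). *PHO81* differed by -0.25 without a call (adjusted p = 0.0107), but was called by edgeR's likelihood ratio test (adjusted p = 0.00715) and by DESeq2 (adjusted p = 0.00967). With only YO2085 for *flo11*Δ, the adjusted p was 0.0280 for *PHO85*, 0.103 for *PHO80* and 0.0371 for *PHM8*, and *VTC1* was the sole call, as it was with only YO2086 or only YO2089. With only YO2088 for *cis3*Δ, *PHO85* and *PHM8* kept their calls and *PHO80* did not (adjusted p = 0.0191). *PHO80* also lost its call in 6 of the 8 fits that left out a library (adjusted p of 0.0195 to 0.0315 in these), with TMM factors from all features (adjusted p = 0.0111) and with only these groups in the fit (adjusted p = 0.0114). The *PHO80*/*PHO85* ratio differed by 0.03 (exact p = 0.657).

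Genes around the members in the pathway were followed as lists. The list of 12 phosphate uptake and phosphatase genes, which are induced with the *VTC* genes in phosphate starvation, had most of its members called lower in the disomic strains and the empty plasmid control than in F45. From these same libraries, the paper reported *PHO84*, *PHO89*, *PHO5*, *PHO8*, *SPL2*, *GIT1*, *PHM6* and *PHM7* of this list, and the member *PHM8*, as repressed in both disomes. The paper also reported *PHO84*, *PHO89*, *SPL2*, *GIT1*, *PHO5* and the member *VTC1* as lowered by both *DIG1* changes. These changes were *DIG1* overexpression and the loss of a *DIG1* copy from the chromosome XVI disome. Counts of the list in the disomes and in the *DIG1* comparisons are therefore a description and not independent evidence. In the chromosome XV disome 11 were called lower, with a median of -2.78 and the largest falls in *PHO89*, a sodium-coupled phosphate transporter (-4.92), and *PHO5*, the secreted acid phosphatase (-4.65). The hemizygous strain had 1 higher and 11 lower (median -2.36), the chromosome XVI disome 1 higher and 11 lower (median -1.49), with all 12 lower in each after copy number adjustment, and the empty plasmid control 12 lower (median -1.23). Between the hemizygous strain and the chromosome XVI disome 7 were called lower, where 20.2% of all features were called, led by the phosphate transporter gene *PHO84* (-1.97) and *GIT1*, a glycerophosphoinositol transporter (-1.33). *DIG1* overexpression lowered 3, led by *PHO5* (-1.90). In *flo11*Δ 9 were lower than in F45 (median -0.78), led by *PHM6* (-2.48), whereas in *cis3*Δ none was called by edgeR (7 at an unadjusted p below 0.05, 1 by DESeq2). Of all features, 25.5% were called lower than in F45 in the chromosome XV disome, 24.9% in the hemizygous strain and 22.6% in the chromosome XVI disome. That share was 20.2% in the empty plasmid control, 13% in *flo11*Δ and, for *DIG1* overexpression against the empty plasmid, 15.2%. CACGTG stood within 500 bases before 9 of these 12, against 6.07% of ORFs.

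The remaining lists moved in mixed directions, and where a list's share of calls lies near that of all features (53.8% in the chromosome XV disome, 52.4% in the hemizygous strain, 49% in the chromosome XVI disome, 39.5% in the empty plasmid control and 25.4% in *flo11*Δ, each relative to F45, and 27.9% for *DIG1* overexpression) it is no result about the list. Of 5 genes made up of the polyphosphatases and *VTC5*, a further VTC subunit, 2 were higher and 3 lower in the chromosome XV disome, with *PPN2*, a vacuolar endopolyphosphatase, at -0.85 and *DDP1*, which lies on chromosome XV, at 0.76. In the chromosome XVI disome 1 was lower, and in the empty plasmid control 2 were lower, led by *VTC5* (-0.91). Of the 9 Pho85 cyclins other than *PHO80*, the chromosome XV disome had 3 higher and 1 lower, the hemizygous strain 4 higher, the chromosome XVI disome 2 higher and 2 lower, and *flo11*Δ 1 higher and 3 lower than F45. The last comparison was led by the G1 cyclins *PCL1* (-1.60) and *PCL2* (-1.04). After copy number adjustment the hemizygous strain had 3 higher and 1 lower and the chromosome XVI disome 1 higher and 3 lower. *PCL8*, which lies on chromosome XVI and was singled out after its values were seen, differed from F45 in the chromosome XVI disome by 0.63 as measured and by -0.37 per copy.

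Of 5 inositol pyrophosphate enzymes, the chromosome XV disome had 1 higher and 2 lower, the hemizygous strain 2 higher and 2 lower, the chromosome XVI disome 2 lower and *flo11*Δ 2 lower. *VIP1* and *KCS1*, the kinases that make these molecules, fell by 0.53 and 0.41 in the chromosome XV disome and by 0.28 and 0.54 in the chromosome XVI disome. Both were also called lower than in F45 in the euploid empty plasmid control, *VIP1* at -0.37 and *KCS1* at -0.45. The 4 SPX domain phosphate transporters were lower in 3 cases in the chromosome XV disome and in 3 in the hemizygous strain, but all 4 were higher in *flo11*Δ than in F45 (median 0.50), with *SYG1* at 1.28 and *PHO90* at 0.58. Of 3 genes for Pho4 transport or competition, 1 was lower in the chromosome XV disome, the exportin gene *MSN5* (-0.46), and 1 was higher in the chromosome XVI disome, *CBF1* (0.24), whose product binds the same letters. *CBF1* lies on neither chromosome XV nor XVI, so copy number adjustment did not apply to it. In the copy number adjusted fit its adjusted p was 0.0101, just past the threshold. The hemizygous strain had 1 higher and 1 lower.

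Of 12 Pho2 partners and adenine genes, 10 were higher in the chromosome XVI disome than in F45 (median 0.63), led by *ADE4* (1.23), 8 were higher in the hemizygous strain, and the chromosome XV disome had 5 higher and 2 lower, with *ADE2*, which lies on chromosome XV, at 1.14. *DIG1* overexpression raised 10 and lowered 1 relative to the empty plasmid control (median 0.71). Nucleotide salvage genes, 4 in number, had 2 higher and 1 lower in the chromosome XV disome, with *SDT1* at -1.06, and 1 higher and 1 lower in the chromosome XVI disome. General stress genes, 12 in number, moved with the members in part relative to F45: 9 were lower in the chromosome XVI disome (median -0.54), led by the catalase gene *CTT1* (-3.60), the hemizygous strain had 2 higher and 9 lower, and the chromosome XV disome 3 higher and 6 lower. Relative to the chromosome XVI disome, 8 were higher and 2 lower in the chromosome XV disome, with 47.6% of features called. The median there was 0.78, against -0.45 for the members. In the hemizygous strain 3 of the 12 were higher and none lower than in the chromosome XVI disome, a share near the 20.2% of all features. The median in that comparison was -0.04, against -0.26 for the members. The part of the stress genes in the differences of *PHM8* and the other members was not tested. All-feature medians in these comparisons were between -0.05 and 0.03.

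Calls between the empty plasmid control and F45 also fell in these lists. The 3 genes for Pho4 transport or competition were all called there, with the importin gene *PSE1* (-0.46) and *MSN5* lower and *CBF1* higher (0.38). Of the 9 Pho85 cyclins, 5 were higher and 2 lower, of the 4 nucleotide salvage genes 1 was higher and 3 lower, and of the 4 SPX domain transporters 3 were lower. General stress genes had 5 lower, led by *CTT1* (-1.72), inositol pyrophosphate enzymes 2 lower, and Pho2 partners and adenine genes 1 higher and 7 lower. Each of these is to be read against the 39.5% of all features called in that comparison.

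Across the 24 libraries of batch 1, the members closest to each other were *VTC3* and *VTC4*, with a Pearson correlation of 0.977 after copy number adjustment (0.938 over the 11 libraries of batch 2), the highest for *VTC3* among 5334 ORFs. *VTC4* was next closest to *PHO84* (0.973, and 0.905 in batch 2), and *PHO81* to *KRE2* (0.973) and *VTC3* (0.968). The likeness of *PHO81* and *KRE2* was absent from batch 2, where the correlation was -0.401, while that of *PHO81* and *VTC3* was 0.868. *PHM8* was closest to *MAF1*, the repressor of RNA polymerase III (0.975, and 0.984 in batch 2), and *VTC1* to *PUN1* (0.933, and 0.955 in batch 2). *VTC2*, *PHO4*, *PHO2*, *PHO80* and *PHO85* were closest to *PDR8* (0.898), *TAT1* (0.915), *FIP1* (0.898), *FUB1* (0.887) and *THI5* (0.853), the last of which has near-identical copies in the genome. In batch 2 the same pairs stood at 0.0659 for *VTC2* and *PDR8*, 0.919 for *PHO4* and *TAT1*, 0.726 for *PHO2* and *FIP1*, 0.733 for *PHO80* and *FUB1*, and -0.391 for *PHO85* and *THI5*. These correlations rest on group differences and on libraries that share their groups, and are given as a description.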

How the data were processed

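Strand-specific paired-end libraries were aligned by the authors with Bowtie2 2.1.0 to reference build R64 extended with F45 genes, and read pairs were assigned with featureCounts 1.4.0. The deposited values are raw counts per feature. Without a mapping quality filter, reads shared by near-identical genes may be misplaced. No feature overlapped a member on the same strand. Columns were tied to groups by strain name.

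Tests used edgeR 4.0.16 in R 4.3.3 (filterByExpr, TMM factors from 6575 nuclear ORFs, in batch 1 those outside chromosomes XV and XVI). All groups of a batch shared a fit, batches were fitted separately, and 8097 and 8059 features were tested. Copy number was entered as an offset. Ratios were tested by two-sided exact permutation (own code with numpy 2.4.6), adjusted over 21 comparisons in batch 1 and 9 in batch 2. The code was tested on simulated counts. Members, lists and tests were chosen with earlier results of these data known. Named genes were all members, the targeted genes, at most the 2 largest called changes of a list in a comparison, and the ORFs most correlated with each member. DESeq2 1.42.0, other scalings, filters and omitted libraries were alternatives. The lowest chi-square per degree of freedom between libraries of a group was 3.31, so none was a duplicate.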

Additional observations from a re-analysis of the deposited data

Results flagged for a closer look

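In 4 of 104 groups of 4 libraries (80 of members and 24 of ratios), 1 library lay far from the other three by Dixon's test, where chance gives about 1 in 20 groups. *PHO4* in the *DIG1* overexpression strain was 47.1 CPM in library 3, with the next at 42.9 CPM. *PHO80* in *cis3*Δ was 40.3 CPM in library 3, with the next at 36.3 CPM. *VTC2* in F45 of batch 1 was 135 CPM in library 3, with the next at 131 CPM. *VTC4* in the *DIG1* overexpression strain was 212 CPM in library 2, with the next at 203 CPM.

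The effect of more *DIG1* differed between the disome and the euploid by the interaction contrast in edgeR's quasi-likelihood test for 5 members: *PHO81* by 0.34 (log2), *VTC1* by 1.71, *VTC2* by 0.37, *VTC3* by 0.78 and *VTC4* by 0.94. Of these, the paper had already reported *VTC1* as lowered by both *DIG1* changes in the same libraries.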

How the results depend on the processing

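Of 1900 alternative values of member log2 fold changes, 1085 belonged to called differences, of which 1014 were still called, 71 were not, and 0 changed direction. A further 19 values of uncalled differences became called, and 17 others, all uncalled, changed direction. Members called in the *DIG1* overexpression comparison (4 as reported) numbered 2 with TMM factors from all features, 1 with only the groups compared and 1 to 4 with a library left out. In *cis3*Δ (0 as reported), 1 was called by edgeR's likelihood ratio test and 1 by DESeq2. With only YO2085, 2 were called in *flo11*Δ relative to F45 (5 as reported), and with only YO2085, YO2086 or YO2089, 1 in *flo11*Δ relative to *cis3*Δ (4 as reported). The copy number adjusted *PHO85* difference in the chromosome XVI disome was called with TMM factors on total counts (-0.20, adjusted p = 0.00133), and that in the hemizygous strain was lost without the low count filter (-0.16, adjusted p = 0.0195), with only the groups compared (-0.14, adjusted p = 0.0250) and with most single libraries left out (range -0.18 to -0.13). Features called in *cis3*Δ relative to F45 (26 as reported) were 186 by the likelihood ratio test, 313 by DESeq2, 4 with only the groups compared, 130 with only YO2088, 9 with only YO2089, 17 with the replicate block and 9 to 173 with a library left out. In *flo11*Δ they were 933 and 1144 with YO2085 or YO2086 alone (2051 as reported), and relative to *cis3*Δ 852, 834 and 1248 with YO2085, YO2086 or YO2088 alone (2055 as reported). DESeq2 divided the *cis3*Δ calls into 197 higher and 116 lower, against 11 and 15 as reported, and the interaction calls were 472 positive and 520 negative with only the groups compared, against 574 and 375. The cause was not tested.

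Values that changed sign were all uncalled. The *PHO4* interaction (0.02 as reported) was -0.0065 by DESeq2, -0.0209 with only the groups compared and -0.0556 to 0.0778 with a library left out. *PHO81* in the *DIG1* overexpression comparison was -0.000902 with TMM factors on total counts and -0.0339 to 0.0348 with a library left out. With a library left out, *PHO2* in the hemizygous strain relative to F45 was -0.0670 to 0.0201, *PHO80* in the overexpression comparison -0.13 to 0.0169, *VTC2* in *flo11*Δ relative to F45 -0.0444 to 0.000677, and *PHO4* in *cis3*Δ relative to F45 -0.0318 to 0.15. With only YO2086, *VTC2* in *flo11*Δ was 0.0071, with only YO2088 *PHO4* in *flo11*Δ relative to *cis3*Δ was -0.0042, and with only YO2089 *PHO4* in *cis3*Δ was -0.14. The single strain settings were chosen after seeing the data.

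The *PHO80*/*PHO85* ratio difference in *flo11*Δ relative to F45 was 0.00012 with 2 counts added. With a library left out, ratio differences ranged as follows: *PHO80*/*PHO85* -0.0440 to 0.0695 in the overexpression comparison and -0.000181 to 0.0842 between *flo11*Δ and *cis3*Δ, *PHO81*/*PHO80* -0.0433 to 0.13 in the overexpression comparison, -0.32 to -0.23 in the empty plasmid control relative to F45 and -0.61 to -0.46 between *flo11*Δ and *cis3*Δ, and *VTC3*/*VTC2* 0.16 to 0.23 for the chromosome XVI disome against F45 and -0.16 to -0.0814 in the overexpression comparison. The exact test then fell short in 4 runs each for *PHO81*/*PHO80* in the empty plasmid control relative to F45 and between *flo11*Δ and *cis3*Δ, and for *VTC3*/*VTC2* in the chromosome XVI disome, and was passed in 1 run for *VTC3*/*VTC2* in the overexpression comparison.

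The replicate block in batch 1 used the sequencing set in the column names, chosen after seeing the data, because replicate numbers in the titles could not be tied to columns. Same-set libraries of different groups correlated over 0.1 in 33 of 60 pairs (median 0.13), against 48 of 180 other pairs (median -0.0409), and 12 of 24 libraries correlated best with their own set. This is a hint that sets deviate together, but not every pair did, and the sets are not taken as pairs. With this block, *PHM8* in the overexpression comparison was called (-0.36, adjusted p = 0.00219). After copy number adjustment, *PHO85* in the hemizygous strain was -0.15 (adjusted p = 0.0108). *PHO80* in the chromosome XV disome relative to the chromosome XVI disome, also adjusted for copy number, was called at -0.21. In batch 2, the replicate block was the library number in the column names, also chosen after seeing the data. There 3 of 10 same-number pairs correlated over 0.1 (median 0.0581), against 9 of 30 other pairs (median -0.0432), and 5 of 11 libraries correlated best with their own number. With it, *PHO4* in *flo11*Δ relative to F45 (0.33, adjusted p = 0.00582) and *PHO81* in *flo11*Δ relative to *cis3*Δ (-0.25, adjusted p = 0.00786) were called. The blocks changed no other call of a member. Members had at least 176 counts in a library, and 4 or 3 libraries per group limit the ratio tests to an exact p of 0.0286.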
